A study of Owenia fusiformis with 14 samples.

Results

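Genes whose RNA level stood apart in blastulae of the annelid *Owenia fusiformis* exposed to DMH1, an inhibitor of BMP signalling, were selected on their measured levels. Levels are CPM, the estimated counts of a gene, summed over its transcripts and scaled to the total of the library. A gene was taken as set apart higher when its lowest DMH1 CPM was at least 5 and at least 2 times the highest CPM of the 12 libraries of the other conditions. It was set apart lower when the lowest CPM of those 12 libraries was at least 5 and at least 2 times its highest DMH1 CPM. Of 27040 genes, 54 were set apart higher (0.200%) and 7 lower (0.0259%), 61 in all. The members were thus chosen by the DMH1 levels themselves, so these shares are a description without a test. Among the 11095 genes with at least 5 CPM in both DMH1 libraries the higher genes were 0.487%, and among the 9926 genes with at least 5 CPM in all 12 other libraries the lower genes were 0.0705%.

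The series holds 14 mRNA libraries of whole embryos, 2 per condition, all ending at 6 h post fertilisation (hpf). From 4 to 6 hpf embryos were kept in 20 µM DMH1, in 0.2% DMSO (the solvent control of DMH1), in mock solution, in recombinant zebrafish BMP4 (rBMP4, labelled 1000 ng/µl) or in recombinant Activin A (rActivin A, labelled 75 ng/µl). From 3 to 6 hpf embryos were kept in 40 µM SB431542, an inhibitor of Activin/Nodal receptors, or in 0.4% DMSO, its solvent control. The methods give the solvent of the protein stocks as the negative control of the proteins, which is taken here to be the mock solution. The labels state neither which females, fertilisations or cultures gave each library nor a batch, so p-values measure the spread between libraries of a condition, which may be technical. A lower level in whole embryos can reflect fewer cells expressing a gene or less RNA per cell, and these cannot be told apart.

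BMP ligands bind receptor pairs at the cell surface, whose kinase phosphorylates SMAD1/5/8, and the SMAD complex then enters the nucleus and regulates target genes. In most bilaterian animals graded BMP activity patterns the dorsoventral axis, and antagonists such as Chordin bind the ligands outside the cell. DMH1 blocks the kinase of the type I receptors. Neither the files nor the study pair the 61 identifiers with gene names, so no role can be given to any of them and they appear as the annotation writes them. The study lists by identifier the genes it called with DESeq2 in DMH1 against its control, and none of the 61 is among them. Its test and limits differ from the rule used here, but its lists also hold changes smaller than 2-fold. OFUSG13652, for example, is absent from them at 74.5 and 76.2 CPM in DMH1 and 256 and 239 CPM in 0.2% DMSO. Why no gene is shared was not tested.

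The libraries held between 9416790 (rActivin A replicate 2) and 59916462 estimated counts (DMH1 replicate 1). The DMH1 libraries were the deepest, with 51004775 in replicate 2. Across 13345 genes the log2(CPM + 0.5) values of both DMH1 libraries correlated with r = 0.994, those of DMH1 and 0.2% DMSO libraries with r of 0.953 to 0.955, and those of DMH1 and mock libraries with r of 0.891 to 0.903. These correlations are across genes, which are not independent replicates. After thinning every library to the depth of the smallest, 50 genes were set apart higher, of which 45 were among the 54, and 8 lower, of which 5 were among the 7.

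One of the 54 higher genes rested on the list of transcripts rather than on a shared measurement. OFUSG26974 summed to 17.9 and 20.7 CPM in DMH1 and to between 0.653 and 2.49 CPM, with a median of 1.40, in the 12 other libraries. In DMH1, 14.5 and 16.6 CPM of this came from OFUSG26974.1_1, a target of 315 bases that only the DMH1 files list. The other 12 files list OFUSG27050.1 in the same row, also with 315 bases and at 18.1 to 36.3 CPM. Whether both names stand for 1 sequence is not stated. On the 31977 transcripts listed in all files, OFUSG26974 reached only 3.41 and 4.13 CPM in DMH1, against up to 2.49 elsewhere, and was not set apart. That left 53 higher genes, and the 7 lower genes were the same. The comparison on shared transcripts was chosen after seeing the data. A further target, OFUSG27049.1, at 0 to 0.738 CPM, is also listed only in the other 12 files. Each DMH1 file lists 31978 targets and each other file 31979, so the list differed together with DMH1 for every gene. Leaving out targets afterwards does not repeat the assignment of reads. An effect of the lists on the other members was not tested.

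**Figure D1:**
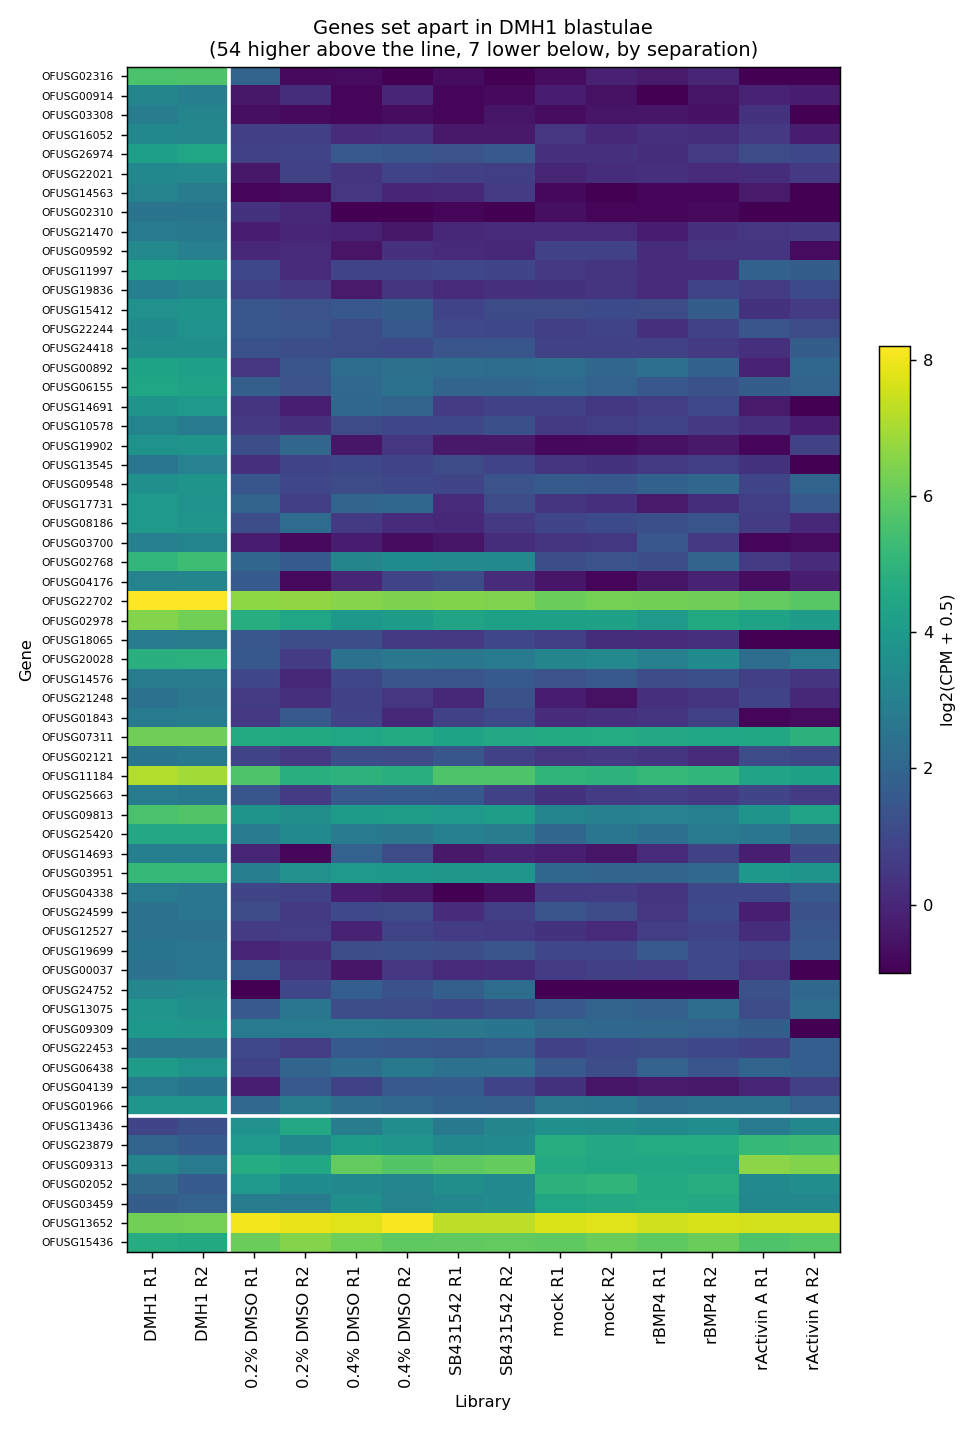
Heat map of the 54 higher genes (above the white line) and 7 lower genes (below it), ordered by separation, in the 14 libraries (columns). Colour gives log2(CPM + 0.5); both DMH1 columns on the left are brighter than every other column in the upper block and darker in the lower block, as the rule requires, and OFUSG22702 is the brightest row of the upper block.

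Most of the higher genes were weakly expressed. Their mean DMH1 level had a median of 9.43 CPM and ran from 5.11 to 293 CPM, and 28 of 54 were under 10 CPM. In 40 of the 54 all 12 other libraries were under 5 CPM, and in 4 all were under 1 CPM. For the 28 genes under 10 CPM in DMH1, a level under 5 CPM elsewhere is fixed by the rule. Counts above 0 were present in all 12 other libraries for 42 of the genes, whereas 12 had a count of 0 in at least 1 of them. The separation, the lowest DMH1 CPM over the highest CPM elsewhere, had a median of 2.99 and reached 3 in 27 genes, 5 in 11 and 10 in 2. Against the mean of the 0.2% DMSO libraries alone, the median of the higher genes was 6.03-fold. The DMH1 replicates of these genes differed by a median ratio of 1.09 and at most 1.44, beside a median of 1.07 over all genes with at least 5 CPM in both.

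The 2 genes with a separation above 10 were at low levels outside DMH1. OFUSG02316 stood at 47.3 and 48.6 CPM in DMH1. In 0.2% DMSO it was at 3.26 CPM in replicate 1 and 0.088 CPM in replicate 2, and in the other 10 libraries it ranged from 0 to 0.487 CPM. Its separation of 14.5 was thus set by 1 solvent control library, and on the log2 scale it was 3.86 with that library and 6.60 without it. OFUSG00914 stood at 8.95 and 7.17 CPM in DMH1, with a lowest value of 0, a median of 0.240 and a highest value of 0.660 CPM elsewhere, so that the groups were 10.9-fold apart at their nearest.

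The next genes by separation had a similar shape at levels under 10 CPM. OFUSG03308 was at 6.81 and 8.68 CPM in DMH1 and at 0 to 0.767 CPM elsewhere, with a median of 0.139 CPM. Its separation was set by rActivin A replicate 1, and on the log2 scale it was 3.15 with that library and 4.42 without it, where the CPM of 3 counts stood in for the 0 of rActivin A replicate 2. OFUSG16052 was at 9.41 and 9.18 CPM, against 0.264 to 1.19 CPM with a median of 0.669. OFUSG22021 was at 9.23 and 9.61 CPM, against 0.259 to 1.29 CPM with a median of 0.751. The lower DMH1 value of each of these 3 genes was 7.17 to 8.88 times its highest value elsewhere. OFUSG14563 was at 8.13 and 6.94 CPM in DMH1. Elsewhere its highest values were 0.865 and 0.490 CPM in 0.4% DMSO and 0.506 and 1.01 CPM in SB431542, and it stayed at 0.295 CPM or less in the other 8 libraries, including 0.0518 and 0.088 CPM in 0.2% DMSO. OFUSG02310 was at 5.31 and 5.49 CPM in DMH1 and at 0.777 and 0.528 CPM in 0.2% DMSO. It was at 0.153 CPM or less in the other 10 libraries, 5 of which held a count of 0. The 0.2% DMSO libraries were thus nearest to DMH1 for OFUSG02310, and the 0.4% DMSO and SB431542 libraries for OFUSG14563.

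**Figure D2:**
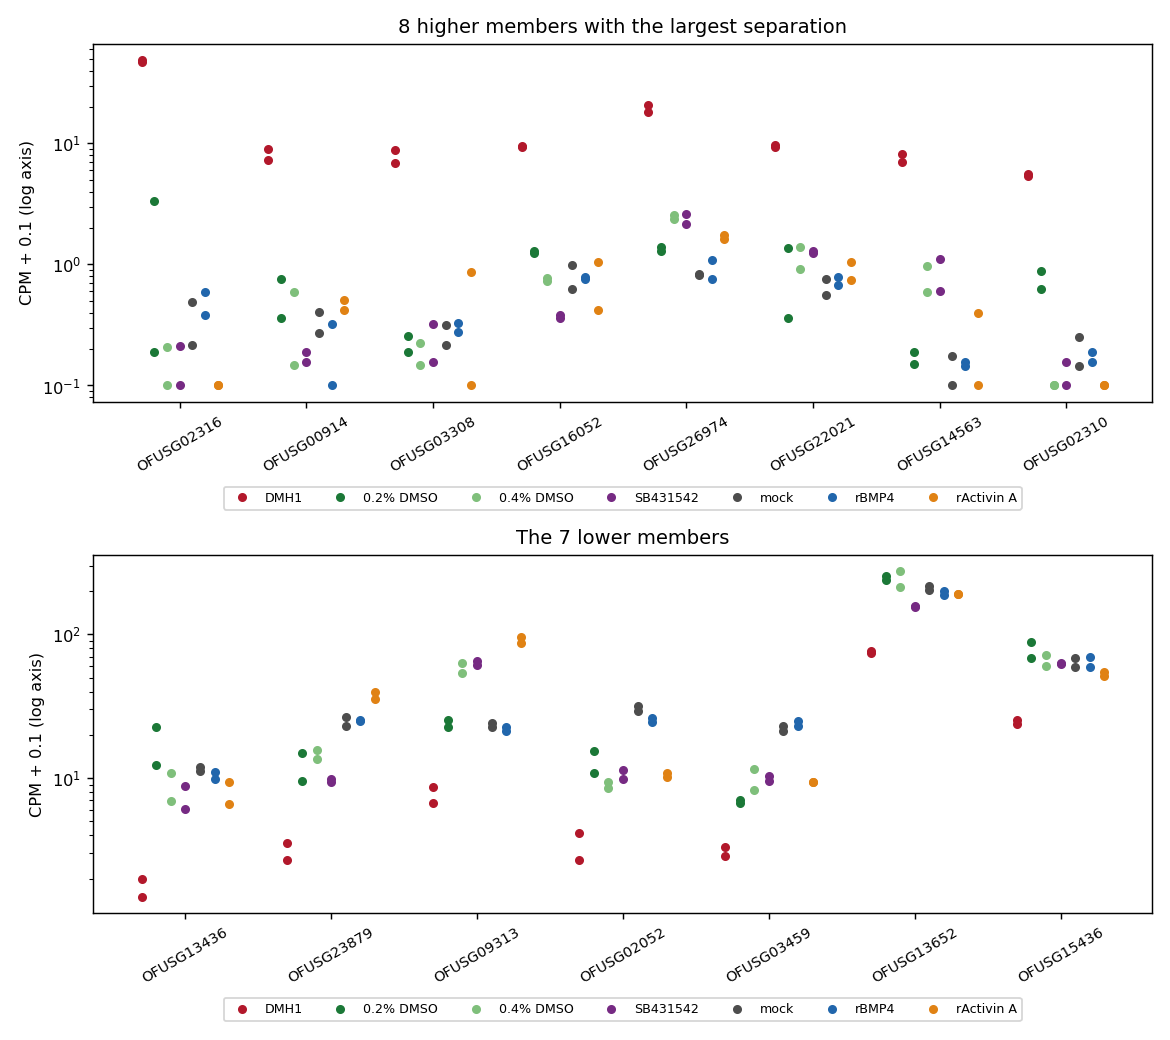
CPM + 0.1 on log axes for the 8 higher genes with the largest separation (upper panel) and the 7 lower genes (lower panel), 1 point per library, coloured by condition. The DMH1 points lie above or below all others for every gene, as the rule requires. For OFUSG02316 a single 0.2% DMSO library at 3.26 CPM lies nearest, and for OFUSG09313 the rActivin A points at 95.8 and 87.1 CPM lie farthest.

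The abundant end of the higher genes was made of few members. Summed over the 54 genes the level was 1237 and 1213 CPM in DMH1 and 213 to 301 CPM, with a median of 261 CPM, in the 12 other libraries. OFUSG22702 held 23.9% of the DMH1 sum and the 4 genes with the highest CPM held 47.2%. OFUSG22702 was at 294 and 292 CPM in DMH1 and at 99.5 and 101 CPM in 0.2% DMSO, and the remaining libraries ranged from 55.5 to 92.2 CPM. OFUSG11184 was at 140 and 122 CPM in DMH1. Elsewhere it was highest in 0.2% DMSO replicate 1, at 50.7 CPM, and in SB431542, at a mean of 49.9 ± 0.028 CPM (SD, n = 2), while 0.2% DMSO replicate 2 was at 26.5 CPM and the lowest library, rActivin A replicate 2, at 18.9 CPM. The TPM scale also divides by the effective length of a transcript, which is its length reduced according to the fragment length. On it the mean DMH1 level was 156 TPM for OFUSG22702, 89.1 TPM for OFUSG04338 and 84.3 TPM for OFUSG11184. The transcript of OFUSG04338 has 342 bases, fewer than the mean fragment of 362 and 367 bases in the DMH1 libraries, so its effective length is small. Its place among the highest by TPM rests on that length and is uncertain, as it was at only 6.24 and 5.55 CPM in DMH1. Elsewhere OFUSG04338 ranged from 0 to 2.44 CPM, with the highest value in rActivin A replicate 2, the shallowest library.

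The make-up of 2 genes with several transcripts differed between DMH1 and 0.2% DMSO, as a description with no test. OFUSG22702 has 2 transcripts of 2188 bases each. OFUSG22702.2 was at 247 and 245 CPM in DMH1 and at 11.3 to 44.0 CPM elsewhere, whereas OFUSG22702.1 was at 46.5 and 47.6 CPM in DMH1 and at 33.0 to 79.0 CPM elsewhere. The difference in the gene thus lay in OFUSG22702.2, which made up 84.0% of the gene in DMH1 and 13.5% to 47.1% of it elsewhere. OFUSG19902, picked out after its values were seen, has 3 transcripts. OFUSG19902.1 was at 12.4 and 13.1 CPM in DMH1 and at 0.176 CPM or less in the 12 other libraries. OFUSG19902.2 was at 0 and 0.106 CPM in DMH1 but at 1.54 and 3.07 CPM in 0.2% DMSO, so that different transcripts carried the gene in DMH1 and in its solvent control. In mock replicate 2 and both rBMP4 libraries OFUSG19902.1 was the main transcript, as in DMH1. The whole gene was at 0.0869, 0.171 and 0.266 CPM there, on few counts. The pseudo-aligner divides reads shared by transcripts of a gene, so these shares are less certain than the gene sums. OFUSG04139 illustrates the limit, as its 2 transcripts of 1036 bases each received equal counts in every library.

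The 7 lower genes lay closer to the limit. Their separation, the lowest level elsewhere over the highest DMH1 level, ran from 2.01 to 3.16 with a median of 2.07, and only OFUSG13436 passed 3. Summed over the 7 genes the level was 120 and 117 CPM in DMH1 and 314 to 427 CPM in the other libraries. Without 0.2% DMSO replicate 2, 18 genes were set apart lower, and without DMH1 replicate 1 or replicate 2, 12 and 11. Relative to the mean of 0.2% DMSO the DMH1 level was between 0.0945 and 0.444 of it, with a median of 0.305. OFUSG13436 was at 1.40 and 1.90 CPM in DMH1, at 12.2 and 22.7 CPM in 0.2% DMSO and at 6.01 to 11.8 CPM in the other 10 libraries. OFUSG23879 was at 3.42 and 2.59 CPM in DMH1 and at 14.8 and 9.41 CPM in 0.2% DMSO. Its lowest level elsewhere was in SB431542, at 9.33 and 9.72 CPM, and its highest in rActivin A, at 35.3 and 39.4 CPM.

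The remaining lower genes differed in which condition came nearest to DMH1. OFUSG09313 was at 8.53 and 6.63 CPM in DMH1 and at 25.2 and 22.6 CPM in 0.2% DMSO. It was at 21.2 to 24.1 CPM in mock and rBMP4, but at 53.5 to 64.7 CPM in 0.4% DMSO and SB431542 and at 95.8 and 87.1 CPM in rActivin A. Its levels outside DMH1 therefore fell into separate ranges, all above DMH1 as the rule requires. OFUSG02052 was at 4.06 and 2.59 CPM in DMH1, at 8.40 to 15.3 CPM in the DMSO, SB431542 and rActivin A libraries, and at 24.4 to 31.7 CPM in mock and rBMP4. OFUSG03459 was at 2.79 and 3.22 CPM in DMH1, at 6.95 and 6.59 CPM in 0.2% DMSO and likewise highest in mock and rBMP4, at 21.1 to 24.9 CPM. Both genes were thus higher in mock and rBMP4 than in any other library. OFUSG13652 was at 74.5 and 76.2 CPM in DMH1, with SB431542 nearest at 156 and 154 CPM and the other 10 libraries between 187 and 273 CPM. OFUSG15436 was at 25.3 and 23.6 CPM in DMH1 and at 50.9 to 88.8 CPM elsewhere, with a median of 62.5 CPM.

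The limit of 2 fell inside a continuous tail and not at a gap. Among genes that met the minimum of 5 CPM, 78 had a separation of 1.5 to 2 in the higher direction, 27 of 2 to 3, 16 of 3 to 5, 9 of 5 to 10 and 2 above that. In the lower direction 44 genes had a separation of 1.5 to 2, 6 of 2 to 3 and 1 of 3 to 5. Just inside the limit, OFUSG01966 had 13.7 and 13.8 CPM in DMH1 against at most 6.79 CPM elsewhere, and OFUSG04139 had 5.45 and 6.41 CPM against at most 2.70 CPM. Just outside it, OFUSG08690 had 8.76 and 9.51 CPM in DMH1 against at most 4.40 CPM, and OFUSG03212 had 7.25 and 8.37 CPM against at most 3.64 CPM. In the lower direction OFUSG15436 and OFUSG13652 were the last inside, at separations of 2.01 and 2.02. OFUSG13128, with 28.3 and 28.4 CPM in DMH1 against at least 55.7 CPM elsewhere, and OFUSG20832, with 4.37 and 5.32 CPM against at least 10.4 CPM, were the first outside.

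**Figure D3:**
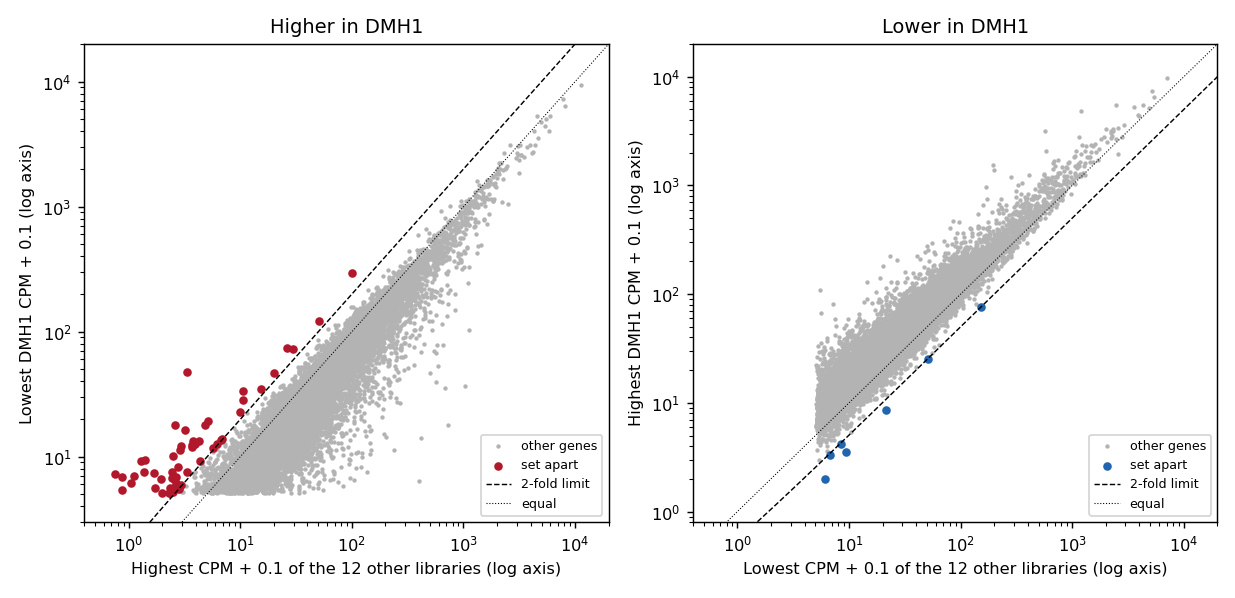
Left, lowest DMH1 CPM against the highest CPM of the 12 other libraries for genes with at least 5 CPM in both DMH1 libraries; right, highest DMH1 CPM against the lowest CPM elsewhere for genes with at least 5 CPM in all 12. Both log axes show CPM + 0.1, the dashed line is the 2-fold limit and the dotted line equality; the 54 higher (red) and 7 lower (blue) genes form the edge of the cloud, most of the red ones at low levels.

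As a scale for these numbers, the same limits were applied to each other condition against its 12 remaining libraries. rActivin A set apart 68 genes higher and 21 lower (0.251% and 0.0777% of all genes), rBMP4 46 higher and 0 lower, mock 26 higher and 0 lower, and SB431542 16 higher and 13 lower (0.0592% and 0.0481%). The DMSO controls set apart 0 genes higher each, and 1 lower in 0.2% DMSO (0.00370%) and 0 lower in 0.4% DMSO. The number for DMH1 was therefore below that of rActivin A in the higher direction, and below those of rActivin A and SB431542 in the lower one. In each direction it was above those of all remaining conditions. The mock libraries, which received no ligand or inhibitor, were set apart in 26 genes (0.0962%), so sets of this kind also appeared without one. Nothing in the labels tells whether libraries of a condition share a culture or batch, and a difference between cultures cannot be told apart from that of the treatment.

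**Figure D4:**
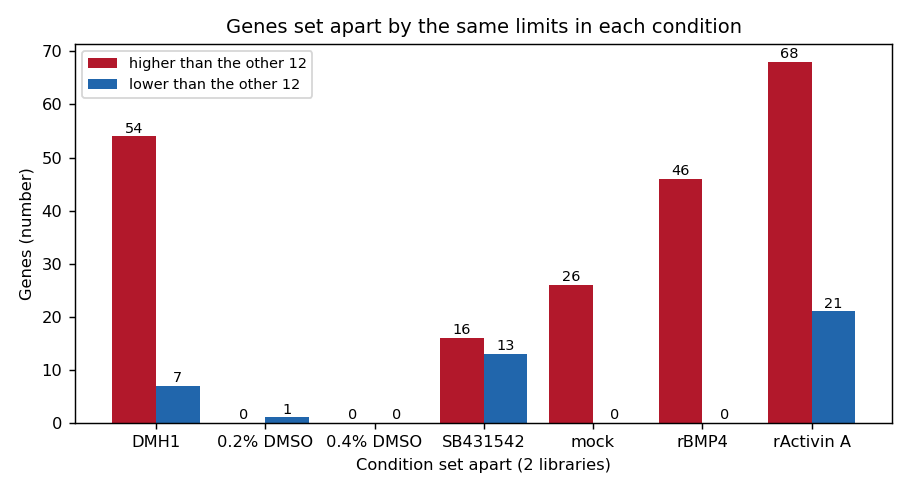
Number of genes set apart higher (red) or lower (blue) in the 2 libraries of each condition against the other 12, by the same limits. DMH1 has 54 and 7; rActivin A has the tallest bars at 68 and 21, mock has 26 higher, and both DMSO controls have at most 1.

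Several properties were compared between the genes set apart and the genes of which they are a part. Of the 54 higher genes 18.5% had more than 1 transcript, beside 18.4% of the 11095 genes with at least 5 CPM in both DMH1 libraries. Their longest transcript had a median of 1509 bases, beside 2069 bases, and for the 7 lower genes the median was 2391 bases, beside 2119.5 bases in the genes with at least 5 CPM in all other libraries. The library nearest to DMH1 was one of 0.2% DMSO for 17 of the higher genes, of 0.4% DMSO for 12, of rActivin A for 10, of SB431542 for 9, of rBMP4 for 4 and of mock for 2. The means of the 3 control groups (0.2% DMSO, 0.4% DMSO and mock) lay more than 2-fold apart in 29 of the 54 higher genes (53.7%) and in 4 of the 7 lower genes. This was so in 21.5% of the 11095 genes, which were more strongly expressed, with a median DMH1 level of 32.6 CPM. The replicates of 0.2% DMSO alone differed more than 2-fold in 20 of the 54 (37.0%), beside 2.90% of the same 11095 genes. The levels were not matched in either comparison, and at the low levels of the higher genes few counts were available. Identifiers with numbers at most 10 apart were found for OFUSG02310 and OFUSG02316, both higher, for OFUSG14691 and OFUSG14693, both higher, and for OFUSG09309 and OFUSG09313, which were higher and lower. The sources used here do not state whether the numbering follows the genome.

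The 6 genes of the BMP pathway that the study pairs with identifiers were expressed in all libraries and none was set apart. For *bmpr2* (OFUSG26337), a type II receptor of the pathway, DMH1 was at 38.4 and 36.7 CPM, below all 12 other libraries, but the nearest of these, in 0.4% DMSO, was at 38.9 CPM. It was at 55.9 and 54.8 CPM in 0.2% DMSO. The ligand *bmp2/4* (OFUSG12159) was at 96.8 and 104 CPM in DMH1 and 85.2 and 80.1 CPM in 0.2% DMSO, and SB431542 reached the DMH1 range at 100.2 and 103 CPM. The antagonist *chordin* (OFUSG13105) was at 428 and 448 CPM in DMH1, within the 220 to 898 CPM of the other libraries. The second ligand *bmp5-8*, the receptor *bmpr1* and the signal transducer *smad1/5/8* also lay within the range of the other libraries.

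The members were next followed in 4 comparisons from which the DMH1 libraries were left out, in 1 fit of the 12 other libraries with the quasi-likelihood test of edgeR. A gene was called at an adjusted p below 0.05 over all 20902 genes tested if it also changed by a log2 of 1 or more. Of the members, 51 of the 54 higher and all 7 lower genes had enough counts to be tested, and OFUSG00914, OFUSG02316 and OFUSG03308 did not. The rule used from these libraries the highest or the lowest CPM, and this bounds all 12 values. For a higher gene the lowest DMH1 CPM was at least 2 times each of them. For a lower gene each was at least 5 CPM and at least 2 times the highest DMH1 CPM. Genes that passed these bounds in any tested condition were left out beforehand. The calls, and their shares beside those of all genes, are therefore shaped by the selection. rBMP4 and rActivin A were both set against mock, and 0.4% DMSO served in the other 2 comparisons, so the comparisons are not independent of each other. The standard error (SE) of the log2 fold change had a median of 0.53 over the higher genes in the comparison of rBMP4 with mock, beside 0.27 over all genes, and the lower genes, with more counts, had 0.17.

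In rBMP4 against mock, where 1.07% of all genes were called (0.565% higher and 0.502% lower), 0 of the 51 higher and 0 of the 7 lower genes were called. At an unadjusted p below 0.05 there were 1 (1.96%) and 0, beside 6.56% of all genes, and DESeq2 also called 0 and 0. The log2 fold changes ran from -0.87 to 1.61 in the higher genes, with a median of 0.08, and from -0.31 to 0.10 in the lower genes, with a median of -0.12, beside 0.00 over all genes. The gene at an unadjusted p below 0.05, OFUSG06155, was at 3.94 and 3.26 CPM in mock and 2.34 and 1.95 CPM in rBMP4 (log2 fold change -0.78, SE 0.33, adjusted p = 0.602). For the 7 lower genes, whose SEs were at most 0.29, a change of 2-fold lay more than 2 SEs from each value, whereas for many of the higher genes a change of 2-fold was not detectable at these counts. In the same comparison *bmp2/4* fell by 2.02 (SE 0.13, adjusted p = 2.09e-07) and *chordin* fell by 1.15 (SE 0.10, adjusted p = 6.48e-06) on the log2 scale, so genes of the pathway did differ between these libraries.

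In SB431542 against 0.4% DMSO, where 0.321% of all genes were called (0.0813% higher and 0.239% lower), 0 of 51 higher and 0 of 7 lower genes were called, and 0 and 0 by DESeq2. At an unadjusted p below 0.05 there were 4 of 51 (7.84%) and 2 of 7 (28.6%), beside 5.92% of all genes. The smallest adjusted p was that of the lower gene OFUSG13652, which was at 214 and 273 CPM in 0.4% DMSO and 156 and 154 CPM in SB431542 (log2 fold change -0.68, SE 0.11, adjusted p = 0.0089). It missed the fold limit and was the single lower gene called at a log2 limit of 0.5. A fit of only the 4 libraries called 2 of the higher genes.

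In rActivin A against mock, where 15.7% of all genes were called (6.95% higher and 8.72% lower), 9 of 51 higher genes were called, 4 higher and 5 lower in rActivin A, and 3 of the 7 lower genes, 1 higher and 2 lower. OFUSG24752 had no counts in both mock libraries, both rBMP4 libraries and 0.2% DMSO replicate 1, and stood at 1.95 and 3.66 CPM in rActivin A, at least 45.9-fold higher than 3 counts over the mock libraries would give (adjusted p = 0.00163). It was at 9.06 and 9.82 CPM in DMH1 and at 1.98 to 4.25 CPM in 0.4% DMSO and SB431542. OFUSG18065 had 1.15 and 0.651 CPM in mock and no counts in rActivin A, at least 7.91-fold lower (adjusted p = 0.00117), beside 6.63 and 6.94 CPM in DMH1. OFUSG14691 was at 1.22 and 0.912 CPM in mock and at 0.295 and 0 CPM in rActivin A (log2 fold change -2.54, SE 0.77, adjusted p = 0.0192). The call of OFUSG14691 was lost without mock replicate 1, without rActivin A replicate 2 and in a fit of only the 4 libraries, with an adjusted p of up to 0.0857.

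OFUSG03700 and OFUSG01843 were also called lower in rActivin A, on few counts. OFUSG03700 had 2 counts in rActivin A and 42 in mock, 11.3 times as many in mock once scaled to the library totals, with an exact 95% interval of 2.93 to 96.1 for counting error. OFUSG01843 had 2 counts and 32 counts, a ratio of 8.58 with an interval of 2.19 to 73.9. Both calls (adjusted p = 0.0247 and 0.0233) were lost on leaving out any of the 4 libraries. Without either mock replicate 1 or mock replicate 2 only 4 of the higher genes were called.

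The calls among the lower genes were held by larger counts. OFUSG09313 rose from 24.1 and 22.5 CPM in mock to 95.8 and 87.1 CPM in rActivin A (log2 fold change 1.95, SE 0.13, adjusted p = 1.81e-07). OFUSG02052 fell from 29.3 and 31.7 to a mean of 10.4 ± 0.57 CPM (SD, n = 2; log2 fold change -1.58, SE 0.19, adjusted p = 2.47e-05). OFUSG03459 fell from 21.1 and 23.0 to 9.25 and 9.33 CPM (log2 fold change -1.27, SE 0.19, adjusted p = 0.000159). DMH1 was below both mock and rActivin A in each, as the rule requires. These 3 calls held in all 10 alternative settings each.

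The DMSO controls also differed in the members. In 0.4% DMSO from 3 hpf against 0.2% DMSO from 4 hpf, where 7.32% of all genes were called (4.23% higher and 3.10% lower), 8 of 51 higher genes were called, 5 higher and 3 lower in 0.4% DMSO, and 1 of 7 lower genes. The DMSO concentration and the starting hour change together here and cannot be told apart. OFUSG14691 was at 0.828 and 0.352 CPM in 0.2% DMSO and 3.70 and 3.31 CPM in 0.4% DMSO (log2 fold change 2.62, SE 0.60, adjusted p = 0.00683). OFUSG14693, whose identifier lies close to it, went from 0.466 and 0.044 CPM to 3.22 and 1.65 CPM (log2 fold change 3.32, SE 0.87, adjusted p = 0.0141), and its call was lost without 0.2% DMSO replicate 2 or 0.4% DMSO replicate 1. In DMH1 both genes were higher still, as the rule requires, OFUSG14691 at 13.2 and 15.0 CPM and OFUSG14693 at 7.41 CPM in each library.

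OFUSG02310 had no counts in 0.4% DMSO and was at least 8.07-fold lower there than in 0.2% DMSO (adjusted p = 0.0187), a call lost without 0.2% DMSO replicate 1 or either 0.4% DMSO library. OFUSG04338 was at 1.40 and 1.28 CPM in 0.2% DMSO and at 0.336 and 0.245 CPM in 0.4% DMSO (log2 fold change -2.12, SE 0.69, adjusted p = 0.041). OFUSG08186 went from 1.76 and 4.18 CPM to 0.961 and 0.613 CPM (log2 fold change -1.86, SE 0.54, adjusted p = 0.0236). The call of OFUSG04338 was lost on leaving out any 1 of the 4 libraries and that of OFUSG08186 on leaving out any but 0.2% DMSO replicate 1. Both were also lost in a fit of only the 4 libraries. Over the alternatives the log2 fold change ran from -2.37 to -1.93 for OFUSG04338 and from -2.34 to -1.10 for OFUSG08186. The lower gene OFUSG09313 was at 25.2 and 22.6 CPM in 0.2% DMSO and 62.7 and 53.5 CPM in 0.4% DMSO (log2 fold change 1.33, SE 0.13, adjusted p = 2.17e-05), a call that held in all 10 alternative settings. Without 0.4% DMSO replicate 1 or replicate 2, 3 and 4 of the higher genes were called.

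**Figure D5:**
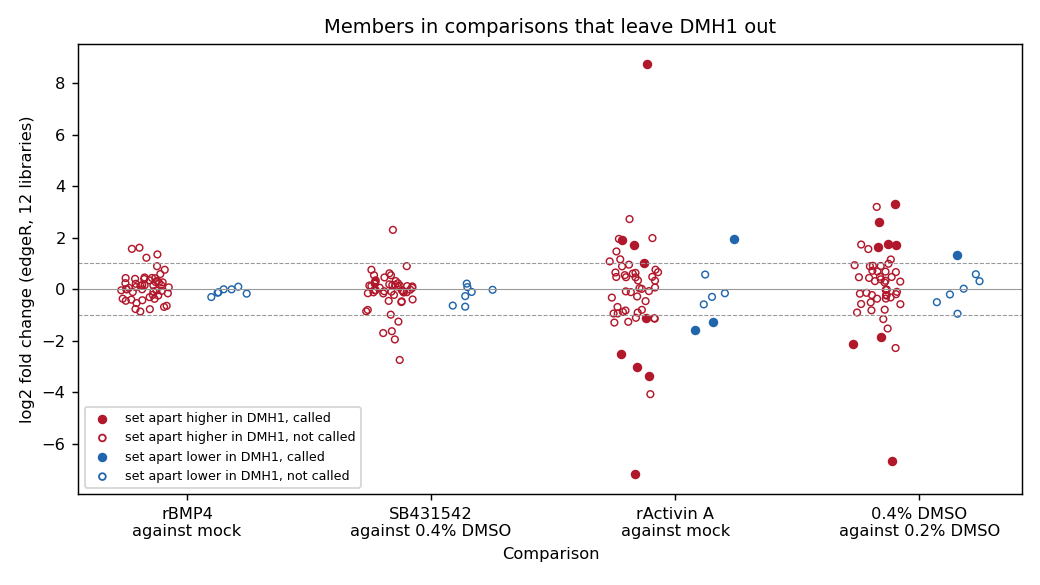
log2 fold change of each tested member (51 higher genes in red, 7 lower genes in blue) in the 4 comparisons without DMH1 libraries; filled points were called by edgeR and dashed lines mark a log2 fold change of 1 and -1. No point is filled for rBMP4 or SB431542, 9 red and 3 blue points are filled for rActivin A, and 8 red and 1 blue point for the DMSO controls. Points beyond 5 in either direction belong to genes with no counts in 1 of the groups, where the fitted value has no fixed size.

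Over the 4 comparisons, 15 of the 51 higher genes tested (29.4%) and 3 of the 7 lower genes (42.9%) were called at least once, beside 21.5% of all 20902 genes tested, and 39 of the higher genes, including the 3 not tested, were called in none. OFUSG14691 was called lower in rActivin A against mock and higher in 0.4% against 0.2% DMSO, and OFUSG09313 was called higher in both. OFUSG02768, named after its values were seen, was called in the same directions as OFUSG14691 in both comparisons. Whether the calls of OFUSG02768 held in the alternative settings was not followed, and the rActivin A call of OFUSG14691 was lost in some of them. OFUSG02768 was at 1.80 and 2.08 CPM in mock and 1.06 and 0.637 CPM in rActivin A (log2 fold change -1.14, SE 0.41, adjusted p = 0.0451), and at 3.62 and 2.73 CPM in 0.2% DMSO and 8.55 and 10.5 CPM in 0.4% DMSO (log2 fold change 1.63, SE 0.33, adjusted p = 0.00309). In DMH1 it was at 33.2 and 39.9 CPM.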

How the data were processed

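Total RNA of whole embryos was made into strand-specific mRNA libraries and sequenced in paired-end mode. The authors assigned the reads to annotated transcripts with Kallisto (version 0.46.2 per the submitters' processing notes, which also name DESeq2 1.26.0), and deposited estimated counts, TPM and lengths per transcript, 1 file per library. The sources used here give neither genome build nor strand setting. In their titles the labels name the inhibitor SB435421, whereas treatment protocol and paper name SB431542. The labelled ligand unit exceeds the stock concentration that the methods give.

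Estimated counts were summed per gene, and CPM were computed on each file's total. For the 12 libraries without DMH1, sums were rounded, filtered with filterByExpr, scaled with TMM and tested with edgeR 4.0.16 (R 4.3.3) in 1 fit of 6 groups, 6 residual degrees of freedom and Benjamini-Hochberg adjustment over all genes. The fits used only transcripts listed in all files. Against a group at 0, folds are bounds set by 3 counts in that group as a whole and cover only counting error. Alternatives were DESeq2 1.42.0, its size factors, no filter, fits of 14 or 4 libraries, a replicate block, other limits, TPM, single transcripts, thinning and leaving out libraries. Of the identifiers, 0 matched the RefSeq gene table.

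The genes described and the lists were chosen with earlier results of these data known. Named were, per direction, the 8 genes with the largest separation, the 4 with the highest TPM, 2 on each side of the limit, up to 5 called per comparison, the gene with the largest change of isoform share (OFUSG26974) and 6 BMP pathway genes.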

Additional observations from a re-analysis of the deposited data

Results flagged for a closer look

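Targets that are not listed in all files held counts and stood outside the fits. OFUSG26974.1_1, listed only in the DMH1 files, had a median of 15.6 CPM over those 2 files. OFUSG27050.1, listed in the same row of the other 12 files and of the same length of 315 bases, had a median of 22.5 CPM over them. No test compares the 2, since no file lists both.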

How the results depend on the processing

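The number of higher genes was 132 at a fold limit of 1.5, 27 at 3, 111 at a CPM limit of 2 and 26 at 10, and it ran from 54 to 80 when 1 library was left out. The number of lower genes was 51 at a fold limit of 1.5, 1 at 3, 12 at a CPM limit of 2, 3 at 10, 12 on single transcripts and 11 without both rActivin A libraries. Left-out libraries gave 7 to 18 lower genes, with 18 without 0.2% DMSO replicate 2, 12 without DMH1 replicate 1 and 11 without DMH1 replicate 2. On TPM 52 genes were higher, of which 35 were among the 54, and 7 lower, of which 4 were among the 7. On TMM-adjusted library sizes and shared transcripts 55 were higher, of which 51 were among the 54.

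Higher genes called in 0.4% against 0.2% DMSO numbered 13 in the fit of all 14 libraries, 4 in that of 4 libraries, and 3 to 10 with 1 library left out. For rActivin A against mock the left-out range was 4 to 10, and the fit of 4 libraries called 2 for SB431542. Lower genes called at a log2 limit of 0.5 were 1 for SB431542 and 3 for 0.4% against 0.2% DMSO, where leaving out 1 library gave 1 to 2. No result reversed.

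Deviations of same-numbered libraries correlated across genes at 0.08 to -0.01, with 1 value per comparison. This gave no sign of pairing by replicate number but cannot show whether such libraries shared a culture. With the replicate block, the higher genes called were 0 for rBMP4, 8 for rActivin A, 0 for SB431542 and 9 for the DMSO controls, and the lower ones 0, 3, 0 and 1.

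At 2 libraries per condition and under 5 CPM in 40 of the 54 genes outside DMH1, changes of 2-fold were often not detectable.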
